A study of Mus musculus with 2 samples.

Results

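The 36 genes described here belong to the hypoxia response and to glycolysis. They were chosen by symbol, and all 36 symbols were found among the 32285 genes of the files. One symbol, Aldoa, stands on 2 rows, so 37 rows matched, and the row with more UMIs (unique molecular identifiers, which mark single captured transcripts) was used. The genes were measured by droplet single-cell RNA sequencing of mouse retina at postnatal day 6, with CD31 beads used to enrich endothelial cells. The control carried floxed Alk1 alleles (Alk1f/f) and no Cre. The knockout, called Alk1 ECKO, carried the same floxed alleles with Cdh5 CreERT2, a tamoxifen-inducible Cre driven by an endothelial promoter. Alk1, the gene Acvrl1, encodes an endothelial BMP receptor. There was 1 library per genotype, so each difference below is between these libraries, has no replicate check and carries no p-value. The sources used here do not give how many animals went into a library or when Cre was induced.

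When oxygen is short, prolyl hydroxylases of the EGLN family stop marking the HIF alpha subunits for degradation. The stabilised subunits pair with ARNT, bind DNA at a short core motif and raise transcription of glucose transporters, glycolytic enzymes, the EGLN genes themselves and mitophagy receptors. HIF alpha is controlled mainly as a protein, so its transcript is not a readout of the response. Sprouting endothelial cells rely on glycolysis, and photoreceptors and Müller glia of the retina convert much of their glucose to lactate. In the neonatal mouse the vascular plexus is still spreading over a retina whose outer layers it has not reached.

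The control library held 8739 barcodes and 54800465 UMIs, and the Alk1 ECKO library 5308 barcodes and 62728605 UMIs. After the filters 7409 and 4093 cells were kept, and 14 of their barcodes occurred in both libraries. Levels are in CPM, UMIs of a gene scaled to 1000000 UMIs of the class. Endothelial Acvrl1 had 116 CPM without Cre and 120 CPM with it. The assay counts 3′ transcript ends and no source used here names the exons lost from the floxed allele, so this does not check the deletion. The libraries differed widely in makeup: 299 control and 1119 Alk1 ECKO endothelial cells, 11 and 148 mural cells, 49 and 194 microglia or macrophages, 681 and 179 Müller glia or late progenitors, 3111 and 422 rods, and 192 and 18 cones. All 16 endothelial, 14 mural, 16 microglial and 14 rod markers were above 0 in their own class in both libraries. A further 1480 Alk1 ECKO and 38 control barcodes lay in clusters whose median mitochondrial share was under 1% and were set aside. The mitochondrial share was lower in Alk1 ECKO in each of the 6 classes, for example a median of 2.52% against 4.35% in endothelial cells, and its part in the results below was not tested.

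The UMIs of all cells of 1 class and library were added up. Ratios are log2 of Alk1 ECKO CPM over control CPM, relative to the median ratio of all genes measured in that class (at least 30 UMIs over both libraries). That median lay between -0.20 in endothelial cells and -0.01 in mural cells. A gene is called higher when it is at least 25% above that median ratio and lower when at least 20% below it, the same factor in both directions. Where a pair of levels is given, the control comes first. Intervals are 95% and cover counting error only. A call rests on size alone and may lie within counting error. On this scale endothelial Acvrl1 lay at 0.25 (0.16 to 0.35), short of a call.

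Most enzymes of lower glycolysis were higher in Alk1 ECKO in each of the 6 classes, while no HIF subunit was called higher in any class. In endothelial cells 15 of 32 measured members were higher and 5 lower, beside 24.7% of all measured genes higher and 24.1% lower. The median of the measured members was 0.21. In mural cells 17 of 28 were higher and 3 lower (all genes 33.0% and 33.0%), with a median of 0.51. In microglia or macrophages 14 of 26 were higher and 5 lower (25.5% and 26.8%), with a median of 0.35. The glia and the photoreceptors followed. Müller glia or late progenitors had 24 of 35 members higher and 5 lower (22.7% and 26.9%), with a median of 0.62. Rods had 20 of 31 higher and 0 lower (25.4% and 27.4%), with a median of 0.73. Cones had 16 of 32 higher and 6 lower (28.0% and 30.8%), with a median of 0.33. The rods and the Müller glia or late progenitors thus had the highest medians of the 6 classes, above the endothelial cells in which the gene was targeted.

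**Figure D1:**
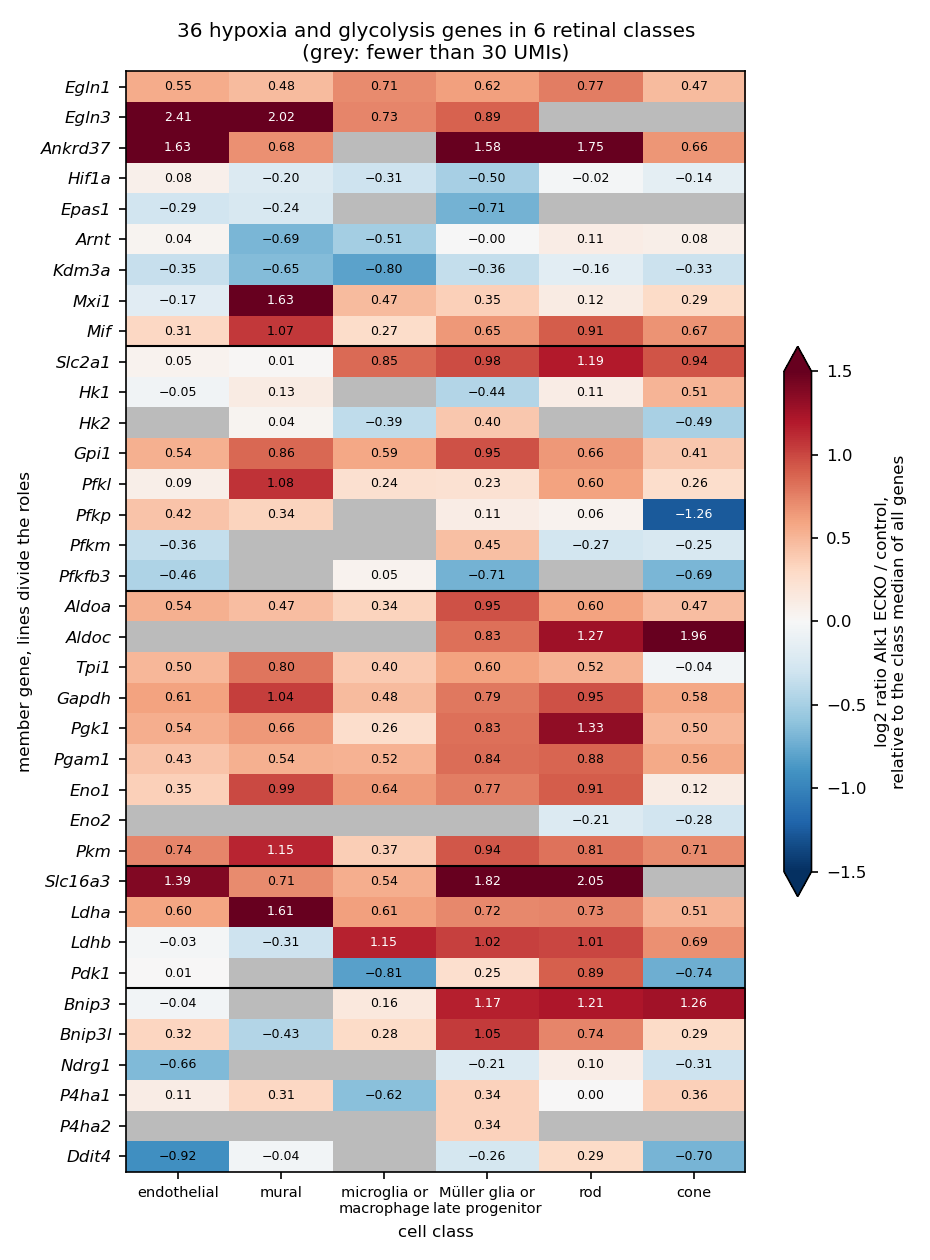
Relative log2 ratio (Alk1 ECKO over control) of the 36 genes, rows, in 6 cell classes, columns, with red for higher and blue for lower in Alk1 ECKO and grey for fewer than 30 UMIs. The block of lower glycolysis is red in most cells of the map, the largest endothelial value is that of Egln3 (2.41), and Kdm3a is blue throughout.

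Genes with many UMIs were more often higher than all measured genes in 5 of the 6 classes, and less often in mural cells. Many glycolytic enzymes are abundant. Among genes with a mean of at least 100 CPM over both libraries, 44.3% were higher in endothelial cells, beside 11 of 15 members. In mural cells the share was 29.9% beside 11 of 15 members, and in microglia or macrophages 32.7% beside 9 of 14. For the Müller glia or late progenitors it was 34.5% beside 17 of 20, for rods 38.2% beside 13 of 17 and for cones 33.4% beside 11 of 17. No abundant member was lower in endothelial cells (7.56% of such genes), rods (10.1%) or cones (14.0%). In mural cells (25.9%), microglia or macrophages (12.7%) and Müller glia or late progenitors (7.16%) 1 member each was lower.

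**Figure D2:**
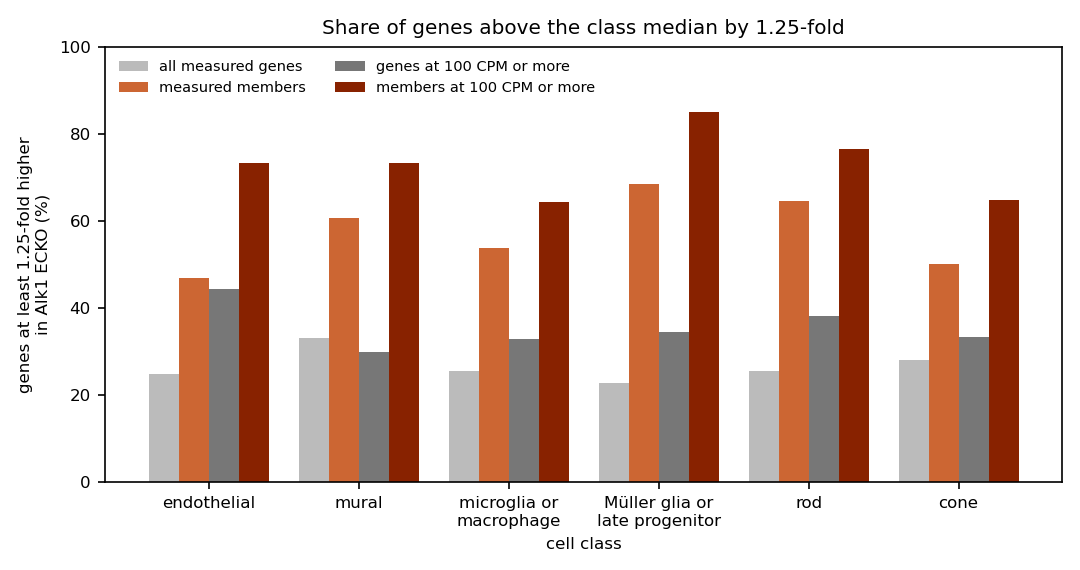
Share of genes, in percent, called higher in Alk1 ECKO, at least 25% above the class median, for all measured genes, the measured members and the same sets limited to 100 CPM or more, in 6 classes. In endothelial cells the abundant genes of the background reach 44.3%, while all measured genes reach 24.7%.

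A total of 7 genes were higher in every one of the 6 classes, out of 20 members measured in all 6: Egln1, Gpi1, Aldoa, Gapdh, Pgam1, Pkm and Ldha. No member was lower in all 6. Of all 5433 genes measured in every class, 2.34% were higher and 0.994% lower in all of them. Among the 653 genes that also had at least 100 CPM in each class, 9.49% were higher in all, beside 6 of 12 members. Leaving out mural cells, with 11 control cells, gave the same 7 genes, beside 4.65% of all genes. Leaving out cones, with 18 Alk1 ECKO cells, added Slc16a3, Tpi1 and Eno1, beside 3.1% of all genes. At 1.5-fold no member was higher in every class, beside 0.11% of all genes. With plain CPM, not set relative to the class median, 3 were (0.46% of all genes): Egln1, Gapdh and Ldha. The endothelial part of this result changed with how the sub-clusters of that class, described further below, were weighted. Only 5 sub-clusters had enough cells of both libraries. With these summed as they are (289 control and 542 Alk1 ECKO cells, an alternative chosen after seeing the data), the 7 genes lay at 0.57 to 0.96 in endothelial cells and all 7 were higher in every class. The share of all genes higher in every class was then 2.47%. With equal weights for the same 5, 0 of the 7 were called higher there, at 0.04 to 0.27. No member was then higher in every class, beside 0.939% of all genes.

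Upstream sequence was examined for the 6 of these 7 genes with the highest median ratio over classes, and is shown for the 2 whose windows hold ACGTG outside annotated exons, ACGTG being the A form of the core that HIF recognises. The sequences are the 250 bases before the outermost RefSeq start (GRCm38.p6), 5′ to 3′ on the gene's strand, and overlap no exon of GENCODE vM21. They are Ldha at chr7:46845554-46845803 (plus strand) and Pgam1 at chr19:41911621-41911870 (plus). The Ldha window lies before its RefSeq start but inside the gene as GENCODE draws it, from 46841475 to 46855627. Capitals mark ACGTG or its reverse complement CACGT, which overlap where they read CACGTG.
Ldha: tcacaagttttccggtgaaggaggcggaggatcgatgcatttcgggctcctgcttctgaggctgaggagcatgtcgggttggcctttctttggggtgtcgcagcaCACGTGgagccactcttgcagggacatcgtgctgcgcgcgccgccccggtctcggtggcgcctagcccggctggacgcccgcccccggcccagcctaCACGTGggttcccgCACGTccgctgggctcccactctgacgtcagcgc
Pgam1: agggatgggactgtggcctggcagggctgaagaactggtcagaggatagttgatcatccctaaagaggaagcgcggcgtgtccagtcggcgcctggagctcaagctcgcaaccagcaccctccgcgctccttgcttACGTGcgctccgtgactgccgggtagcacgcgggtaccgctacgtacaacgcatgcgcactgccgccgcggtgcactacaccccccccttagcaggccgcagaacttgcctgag
Ldha holds the motif at 3 places, which begin 145, 48 and 34 bases before the start. Pgam1 holds it at 1 place, 114 bases before the start. The Egln1 window also holds it at 1 place, 68 bases before the RefSeq start, but overlaps the untranslated 5′ end of Egln1 in GENCODE and is not printed. The letters are not in the same window of Pkm, Gapdh and Gpi1. Pkm has 2 RefSeq starts, and the window of its other start holds ACGTG at 1 place. Of the 33 members with an entry, 16 held ACGTG on either strand, and of all 27025 genes with an entry 16.5% did. The G form, GCGTG with its reverse complement CACGC, was in 17 of 33 members and in 28.3% of all genes. Of the 6 windows examined, those of Gapdh, Pgam1 and Egln1 held the G form, and those of Pkm, Ldha and Gpi1 did not. A match is a run of letters and was not tested as a binding site.

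Gapdh, a dehydrogenase midway down the pathway, stood in endothelial cells at 1145 CPM in the control and 1513 CPM in the knockout (relative ratio 0.61, 0.58 to 0.63). In rods it stood at 1015 and 1765 CPM (0.95, 0.88 to 1.02), and in Müller glia or late progenitors at 1946 and 2978 CPM (0.79, 0.73 to 0.85). In mural cells the levels were 859 and 1752 CPM (1.04, 0.78 to 1.31), in microglia or macrophages 1095 and 1405 CPM (0.48, 0.37 to 0.59), and in cones 1186 and 1655 CPM (0.58, 0.42 to 0.73). The Poisson intervals of the 2 libraries did not overlap in any class, and the glia were highest in both libraries.

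Pkm, pyruvate kinase of muscle type, which makes pyruvate and ATP, had endothelial levels of 667 and 966 CPM (0.74, 0.70 to 0.77). Its mural level was 319 and 701 CPM (1.15, 0.72 to 1.60). Rods were at 865 and 1367 CPM (0.81, 0.73 to 0.89), and the microglial ratio was the smallest of the 6 (0.37, 0.21 to 0.53). Ldha, the lactate dehydrogenase subunit that favours lactate, stood at 435 and 572 CPM in endothelial cells (0.60, 0.55 to 0.64). It was most abundant in rods, at 1983 and 2957 CPM (0.73, 0.68 to 0.78), and its largest ratio was mural, at 367 and 1111 CPM (1.61, 1.21 to 2.03). The mural control value rests on 53 Ldha UMIs from 11 cells.

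Gpi1, the isomerase of the second step of glycolysis, stood at 248 and 312 CPM in endothelial cells (0.54, 0.48 to 0.60) and reached its largest ratio in Müller glia or late progenitors, at 181 and 311 CPM (0.95, 0.75 to 1.15). Aldoa, the aldolase that splits fructose bisphosphate, was lowest in endothelial cells among the 6 classes, at 287 and 362 CPM (0.54, 0.48 to 0.59). In Müller glia or late progenitors Aldoa stood at 596 and 1021 CPM (0.95, 0.84 to 1.06). Pgam1, phosphoglycerate mutase, ranged from a ratio of 0.43 in endothelial cells (209 and 244 CPM) to 0.88 in rods (227 and 375 CPM). Egln1, the main oxygen-sensing prolyl hydroxylase, stood at 125 and 160 CPM in endothelial cells (0.55, 0.47 to 0.64) and at 112 and 172 CPM in rods (0.77, 0.55 to 0.99). Its mural (0.48, -0.29 to 1.37) and cone ratios (0.47, -0.08 to 0.98) lay within counting error. The other 6 of the 7 genes were higher with an interval above the class median in every class, beside 0.902% of all genes.

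**Figure D3:**
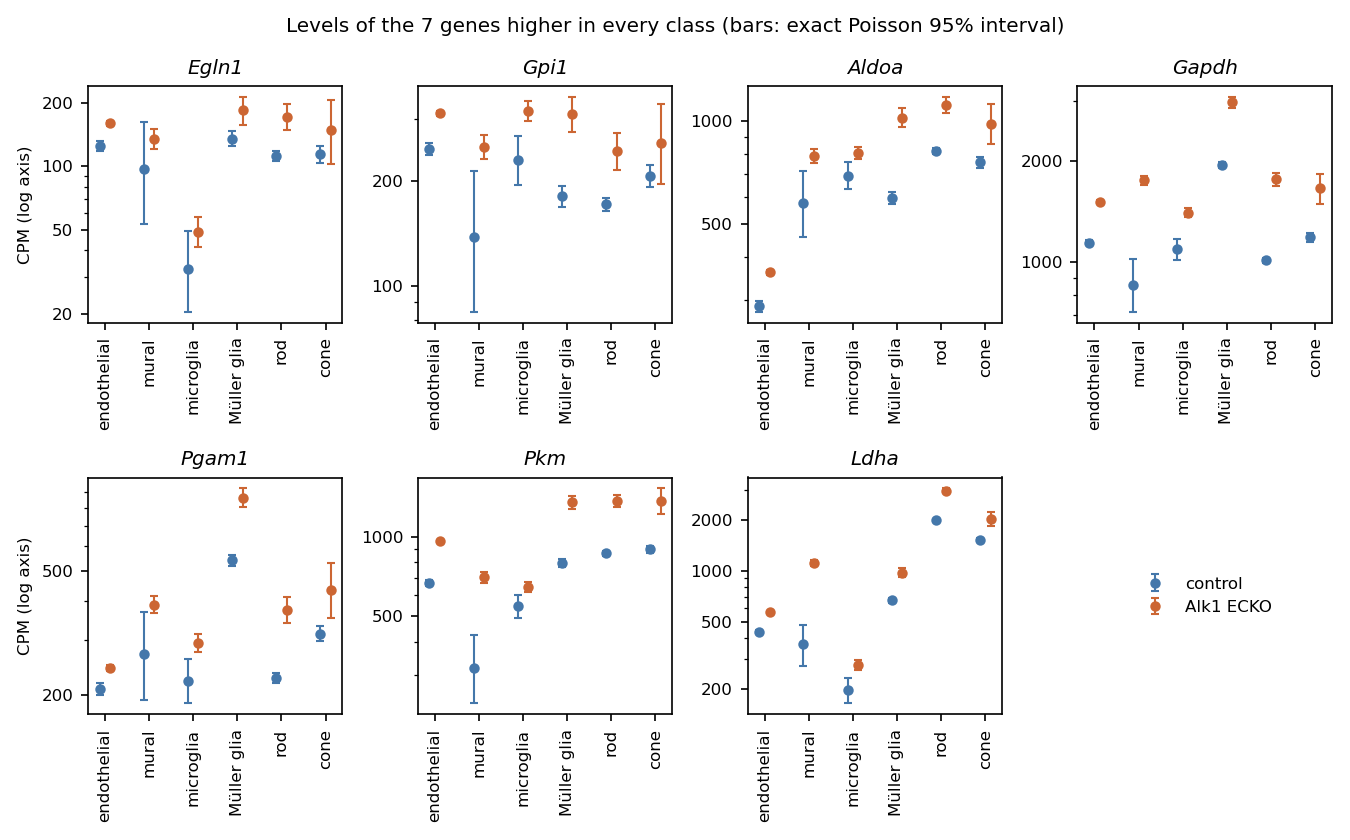
CPM on a log axis of the 7 genes higher in every class, in control (blue) and Alk1 ECKO (orange) cells of 6 classes, with exact Poisson 95% intervals from UMI sums of 1 library each. Gapdh runs from 859 CPM in control mural cells to 2978 CPM in Alk1 ECKO Müller glia, and the wide blue bars are the 11 control mural cells.

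Among the regulators, Ankrd37 and Egln3 had the largest median ratios over the classes in which they were measured, 1.58 and 1.46. Egln3, a prolyl hydroxylase that HIF induces, had 43 control and 712 Alk1 ECKO UMIs in endothelial cells, or 4.17 and 19.3 CPM, a relative ratio of 2.41 (1.97 to 2.89). It was also called higher in the other 3 classes in which it was measured, but there the intervals included the class median, for example 0.89 (-0.15 to 1.84) in Müller glia or late progenitors. In rods it had 1 UMI in control and 0 in Alk1 ECKO. Ankrd37, an ankyrin-repeat gene known as a HIF target, stood at 48.5 and 130 CPM in endothelial cells (1.63, 1.5 to 1.76). Ankrd37 was at 25.3 and 67.0 CPM in Müller glia or late progenitors (1.58, 1.11 to 2.04) and at 28.9 and 87.5 CPM in rods (1.75, 1.41 to 2.08). It was called higher in all 5 classes measured, with the mural and cone intervals reaching below the median.

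The HIF subunits themselves were within the 25% margin or lower. Hif1a, the broadly expressed alpha subunit, stood at 169 and 155 CPM in endothelial cells (0.08, -0.00 to 0.16) and at 770 and 682 CPM in rods (-0.02, -0.13 to 0.08). It was lower in Müller glia or late progenitors, at 236 and 148 CPM (-0.50, -0.77 to -0.24). Epas1, which encodes HIF-2 alpha and is known for its high level in endothelium, was at 284 and 202 CPM there (-0.29, -0.35 to -0.23), just short of a call, and was called lower in Müller glia or late progenitors (-0.71, -1.66 to 0.13). Arnt, the shared partner, stood at 27.4 and 24.4 CPM in endothelial cells (0.04, -0.16 to 0.23) and was called higher in no class and lower in mural cells and microglia or macrophages. Kdm3a, a histone demethylase listed among HIF targets, was lower in 5 of 6 classes, with intervals below the median in endothelial cells (-0.35, -0.57 to -0.13) and microglia or macrophages (-0.80, -1.47 to -0.09). With equal sub-cluster weights the endothelial Kdm3a value was 0.045. Mif, a cytokine gene with HIF sites, was higher in 4 of 6 classes, from 0.65 in Müller glia or late progenitors to 1.07 in mural cells, and not called in endothelial cells (0.31) and microglia or macrophages (0.27). Mxi1, a MYC antagonist, was called higher in 3 classes. Its mural ratio of 1.63 rests on 1 control UMI.

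Glucose entry and its control were mixed. Slc2a1, the GLUT1 glucose transporter of barrier endothelium and of glia, was not called in endothelial cells, at 562 and 505 CPM (0.05, 0.01 to 0.09). In Müller glia or late progenitors it stood at 220 and 384 CPM (0.98, 0.80 to 1.15), in rods at 76.1 and 157 CPM (1.19, 0.95 to 1.43) and in cones at 60.5 and 109 CPM (0.94, 0.29 to 1.54). It had 0 UMIs in the 11 control mural cells, where 3 counts are 20.8 CPM and the exact Poisson upper limit is 25.6 CPM. In Alk1 ECKO mural cells Slc2a1 stood at 20.9 CPM. With the control count set to the floor of 3, its mural ratio was 0.01 (-0.34 to no upper limit). That value enters the mural counts and median, the members measured in every class and the map of relative ratios. It rests on the floor and does not show an unchanged mural level. Among the hexokinases, Hk1 was higher in cones (0.51, 0.00 to 0.98), lower in Müller glia or late progenitors (-0.44, -1.12 to 0.18), and not called in endothelial cells (-0.05), mural cells (0.13) or rods (0.11). Hk2, the inducible form, was lower in microglia or macrophages, at 159 and 112 CPM (-0.39, -0.70 to -0.06), and had 4 and 14 UMIs in endothelial cells. The phosphofructokinases set the pace of the pathway. Pfkp was higher in endothelial cells, at 66.3 and 77.3 CPM (0.42, 0.30 to 0.55), and in mural cells (0.34, -0.74 to 1.68), and lower in cones (-1.26, -3.15 to 0.13). Pfkl was higher in rods, at 69.1 and 94.5 CPM (0.60, 0.30 to 0.90), and in mural cells (1.08, -0.17 to 2.73). Pfkm was lower in endothelial cells (-0.36, -0.71 to 0.00) and higher in Müller glia or late progenitors (0.45, -0.32 to 1.16). Pfkfb3, which makes the allosteric activator of phosphofructokinase and is known for its part in vessel sprouting, was lower in endothelial cells, at 24.4 and 15.4 CPM (-0.46, -0.68 to -0.24). It was higher in none of the 4 classes measured.

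The enzymes of lower glycolysis were the most uniform group. All 7 measured were higher in endothelial and in mural cells, and 6 of 7 in microglia or macrophages. In Müller glia or late progenitors 8 of 8 were higher, in rods 8 of 9 and in cones 6 of 9. The share of all measured genes higher ran from 22.7% in Müller glia or late progenitors to 33.0% in mural cells. At 100 CPM or more it ran from 29.9% in mural to 44.3% in endothelial cells. No enzyme of the group was lower in any of these classes as a whole, beside 24.1% to 33.0% of all genes. Some were called lower within endothelial sub-clusters, as given below. The mural libraries also differed in cycling: all 16 G2/M markers were higher in Alk1 ECKO mural cells, with a summed level of 339 and 2929 CPM, and 9 of 14 mural markers were lower. The part of this in the mural values was not tested. Pgk1, phosphoglycerate kinase, had its largest ratio in rods, at 103 and 233 CPM (1.33, 1.13 to 1.52), and stood at 162 and 205 CPM in endothelial cells (0.54, 0.47 to 0.62). Eno1, enolase 1, was at 1614 and 2437 CPM in Müller glia or late progenitors (0.77, 0.70 to 0.84) and at 199.5 and 221 CPM in endothelial cells (0.35, 0.28 to 0.42). Eno1 shares sequence with the retrogene Eno1b, which drew 284 UMIs, so a few of its reads may be divided. Tpi1, triose phosphate isomerase, was higher in 5 classes and at -0.04 (-0.49 to 0.38) in cones. Aldoc, the aldolase of brain and glia, was measured in the glia and photoreceptors only: 107 and 168 CPM in Müller glia or late progenitors (0.83, 0.56 to 1.09), 23.0 and 49.9 CPM in rods (1.27, 0.83 to 1.69) and 19.1 and 69.7 CPM in cones (1.96, 1.08 to 2.75). Eno2, the neuronal enolase, was measured in rods and cones and was called in neither (-0.21 and -0.28). In endothelial cells Aldoc had 2 and 15 UMIs and Eno2 2 and 1, so these neural transcripts were close to 0 there.

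Of the genes at the fate of pyruvate, Slc16a3, the lactate exporter MCT4, stood at 26.2 and 81.9 CPM in Müller glia or late progenitors (1.82, 1.39 to 2.25). It was at 2.59 and 9.63 CPM in rods (2.05, 0.90 to 3.09) and at 2.52 and 5.75 CPM in endothelial cells (1.39, 0.80 to 2.04). Slc16a3 was called higher in all 5 classes measured. Ldhb, the subunit that favours pyruvate, separated the classes: it was at 23.6 and 20.1 CPM in endothelial cells (-0.03, -0.24 to 0.19). In microglia or macrophages Ldhb stood at 252 and 516 CPM (1.15, 0.92 to 1.39), in Müller glia or late progenitors at 268 and 482 CPM (1.02, 0.86 to 1.18) and in rods at 60 and 109 CPM (1.01, 0.72 to 1.28). Pdk1, the kinase that closes the entry of pyruvate into mitochondria, was at 18.6 and 16.3 CPM in endothelial cells (0.01, -0.23 to 0.25) and lower in microglia or macrophages (-0.81, -1.47 to -0.11).

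The mitophagy receptors were highest in ratio in the glia and photoreceptors for Bnip3, and in the glia and rods for Bnip3l. Bnip3 stood at 109 and 216 CPM in Müller glia or late progenitors (1.17, 0.92 to 1.41), 34.1 and 70.9 CPM in rods (1.21, 0.85 to 1.56) and 42.7 and 95.8 CPM in cones (1.26, 0.55 to 1.91). In endothelial cells it was at 4.08 and 3.44 CPM (-0.04, -0.55 to 0.50). Its relative Bnip3l was at 302 and 553 CPM in Müller glia or late progenitors (1.05, 0.90 to 1.20), 279 and 418 CPM in rods (0.74, 0.60 to 0.88) and 203 and 221 CPM in endothelial cells (0.32, 0.25 to 0.39). Bnip3l was not called in cones (0.29, -0.09 to 0.65) and was lower in mural cells (-0.43, -0.94 to 0.11), where Bnip3 was not measured. Ddit4, the mTORC1 inhibitor REDD1, was lower in endothelial cells, at 57.7 and 26.5 CPM (-0.92, -1.07 to -0.77). Ndrg1, a stress-induced gene known as a hypoxia marker, was lower there too, at 10.3 and 5.64 CPM (-0.66, -1.01 to -0.31), and stood at 818 and 791 CPM in rods (0.10, 0.00 to 0.20). The endothelial Ndrg1 call turned to higher, at 0.40, with equal sub-cluster weights. P4ha1, which hydroxylates prolines of collagen, was lower in microglia or macrophages, at 108 and 64.7 CPM (-0.62, -1.02 to -0.21), and higher in Müller glia or late progenitors (0.34, 0.00 to 0.67). P4ha2 was measured in Müller glia or late progenitors alone, with 25 and 6 UMIs.

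The endothelial cells fell into sub-clusters built without the 36 genes, and the libraries filled them unequally. A sub-cluster with tip cell markers, the cells that lead a sprout, held 16 control and 200 Alk1 ECKO cells, and a cycling one 76 and 260. An arterial sub-cluster held 104 and 34 cells, and one of barrier capillaries 71 and 15. Sub-cluster 8, unnamed, held 22 and 33 cells. Another 3 were almost only of Alk1 ECKO and gave no ratio: sub-cluster 1, led by Apod with barrier markers (4 and 260 cells), sub-cluster 3, arterial with MHC class II transcripts (0 and 179), and sub-cluster 4, led by Apod without enough markers for a name (6 and 138).

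Levels in the Alk1 ECKO library were highest in the tip and cycling sub-clusters for every measured gene of lower glycolysis. Gapdh stood at 1905 CPM in tip and 1815 CPM in cycling cells, against 650 CPM in sub-cluster 3, 692 CPM in barrier capillaries and 459 CPM in sub-cluster 8. Ldha stood at 831 CPM in tip cells and 225 CPM in barrier capillaries, and Pkm at 1457 CPM in tip cells and 386 CPM in barrier capillaries. The control library had the same order for these 3 genes: tip and cycling cells above arterial, barrier and sub-cluster 8 cells, with Ldha at 710, 604, 298, 269 and 201 CPM. Egln3 was at 50.5 CPM in Alk1 ECKO tip cells, 18 CPM in cycling cells and 17.1 CPM in sub-cluster 3, with 0 UMIs in barrier capillaries and in sub-cluster 8. Ankrd37 was at 252 CPM in tip cells and 103 CPM in cycling cells. Slc2a1, Epas1 and Ddit4 had another order. Slc2a1 was at 2489 CPM in sub-cluster 8 and 1739 CPM in sub-cluster 3, against 247 CPM in tip cells. Epas1 was at 999.6 CPM in sub-cluster 3 and 129 CPM in tip cells, and Ddit4 at 117 CPM in sub-cluster 3 and 11.8 CPM in tip cells. Bnip3l ranged from 172 CPM in cycling cells to 367 CPM in sub-cluster 8.

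**Figure D4:**
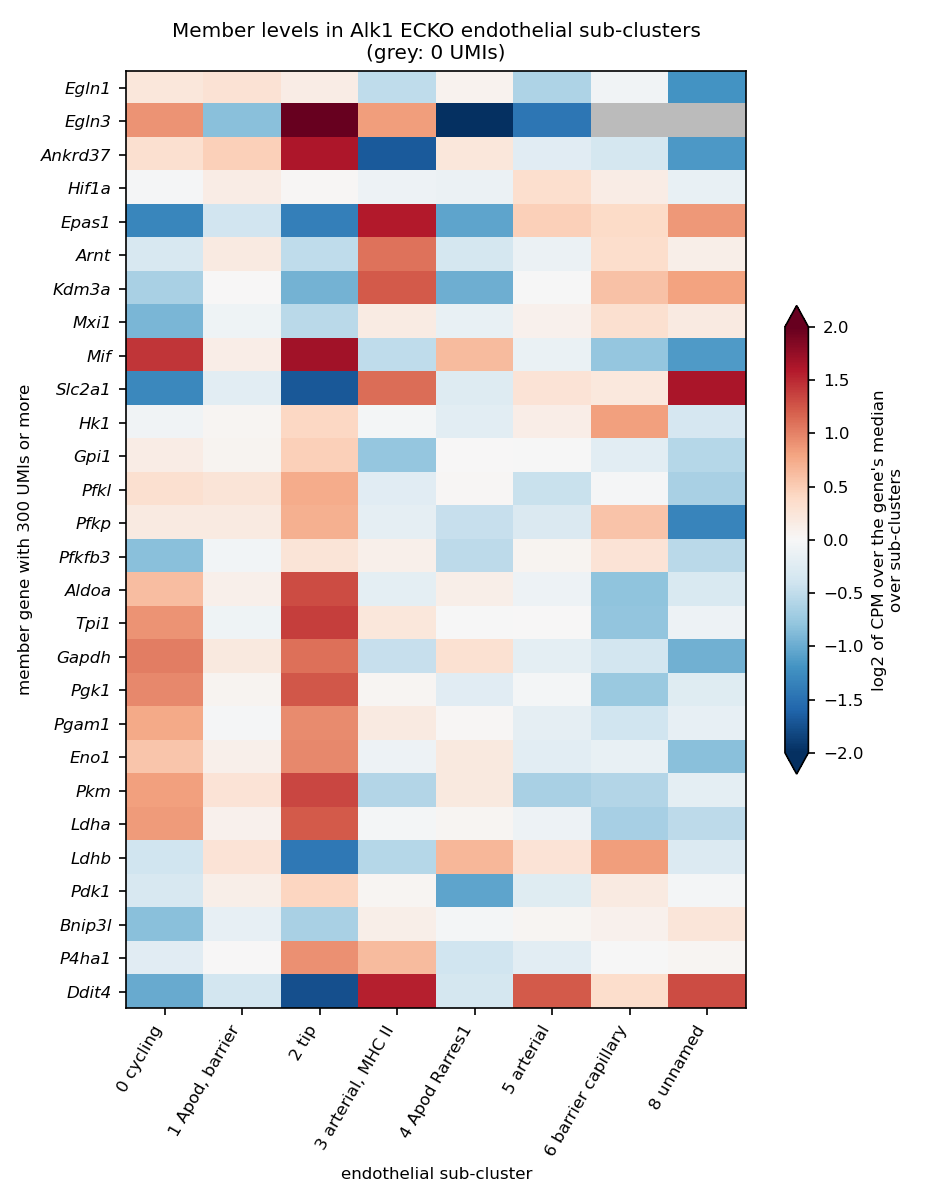
Log2 of the CPM of each gene with at least 300 UMIs over its own median across 8 endothelial sub-clusters of the Alk1 ECKO library, red above and blue below, grey for 0 UMIs. The enzymes of lower glycolysis are red in cycling and tip cells, and Slc2a1, Ddit4, Epas1 and Kdm3a are blue there.

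Within sub-clusters the member median was largest in tip cells, and 4 of the 5 member medians lay below the 0.21 of the whole class. In tip cells 16 of 32 members were higher and 2 lower (all genes 28.5% and 28.3%), with a median of 0.32. The tip values rest on 16 control cells. Of the tip calls, those of Slc16a3, Pfkfb3, Ldhb, Pdk1, Ndrg1, P4ha1, Kdm3a and Mxi1 had intervals reaching below the median. Ldhb and Ndrg1 had 1 control UMI each there. In cycling cells 8 of 32 were higher and 4 lower (24.4% and 23.2%), with a median of 0.11. In arterial cells 5 of 27 were higher and 7 lower (22.9% and 23.7%), in barrier capillaries 4 of 29 and 7 (20.5% and 24.5%), and in sub-cluster 8 4 of 21 and 2 (26.1% and 26.2%). The member medians in these 3 were -0.09, -0.08 and -0.12. Gapdh was higher within tip (0.37, 0.27 to 0.47) and cycling cells (0.37, 0.33 to 0.41), and at -0.29 (-0.44 to -0.13) within arterial cells. Pkm followed the same split, at 0.51 in tip, 0.33 in cycling and -0.31 in arterial cells. Called lower within arterial cells were Eno1 (-0.54, -0.92 to -0.18), Tpi1 (-0.37, -0.78 to 0.02) and Aldoa (-0.35, -0.65 to -0.06). Within barrier capillaries Tpi1 (-0.43, -0.97 to 0.06) and Aldoa (-0.35, -0.73 to 0.00) were called lower. In sub-cluster 8 Tpi1 (0.53, -0.06 to 1.13) and Pkm (0.36, 0.09 to 0.62) were called higher. Ankrd37 was higher within tip (1.85, 1.42 to 2.32), cycling (1.42, 1.20 to 1.65) and arterial cells (0.74, 0.13 to 1.33), and Egln3 within tip (1.5, 0.64 to 2.52) and cycling cells (1.67, 1.1 to 2.30). Slc2a1 was higher within arterial (0.60, 0.45 to 0.75) and barrier cells (0.48, 0.33 to 0.62). Bnip3l had an interval above the median in all 5, from 0.26 to 1.09. Ddit4 was lower within tip cells, at 54.6 and 11.8 CPM (-2.09, -2.70 to -1.44).

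With these 5 sub-clusters weighted equally in both libraries, 7 of 32 members were higher in endothelial cells, beside 20.6% of all genes, in place of 15 of 32. Their plain sums gave 15 of 32, beside 27.7%, and 14 of the 15 members higher in the whole class were among them. Leaving out the other 3 sub-clusters thus kept the count at 15, and equal weights for the same 5 gave 7. Which sub-cluster's weight changed the count was not tested. With equal weights only 4 of the 15 of the whole class were still called higher: Egln3 (1.40), Ankrd37 (1.30), Slc16a3 (0.64) and Bnip3l (0.495). The enzymes of lower glycolysis then had endothelial values from -0.032 for Eno1 to 0.265 for Pkm. Slc2a1 (0.44), Bnip3 (0.69) and Ndrg1 (0.40) were called higher with equal weights and not in the whole class. Those of Bnip3 and Ndrg1 rest on few UMIs, with 0 and 1 in control tip cells and 0 and 4 in Alk1 ECKO barrier capillaries. Slc16a3 had 5 UMIs in control tip cells and 0 in Alk1 ECKO arterial, barrier and sub-cluster 8 cells. Egln3 had 4 and 2 UMIs in arterial cells and 0 in Alk1 ECKO barrier and sub-cluster 8 cells. The equal-weight values of Slc16a3 and Egln3 thus rest mainly on tip and cycling cells. Equal weights also give full weight to the 16 control tip cells and the 15 Alk1 ECKO barrier capillary cells. Among rods, each of the 4 rod clusters had 18 to 20 members higher, of 27 to 30 measured, beside 26.8%, 23.1%, 29.8% and 30.7% of all genes. The main cluster of Müller glia or late progenitors had 23 of 34 higher (22.6%), and a small one of 44 and 15 cells 3 of 11 (24.0%). Members called lower were 3, 1, 2 and 3 in the rod clusters, and 5 and 1 in these 2 glial clusters. The share of all genes lower was not counted per cluster.

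**Figure D5:**
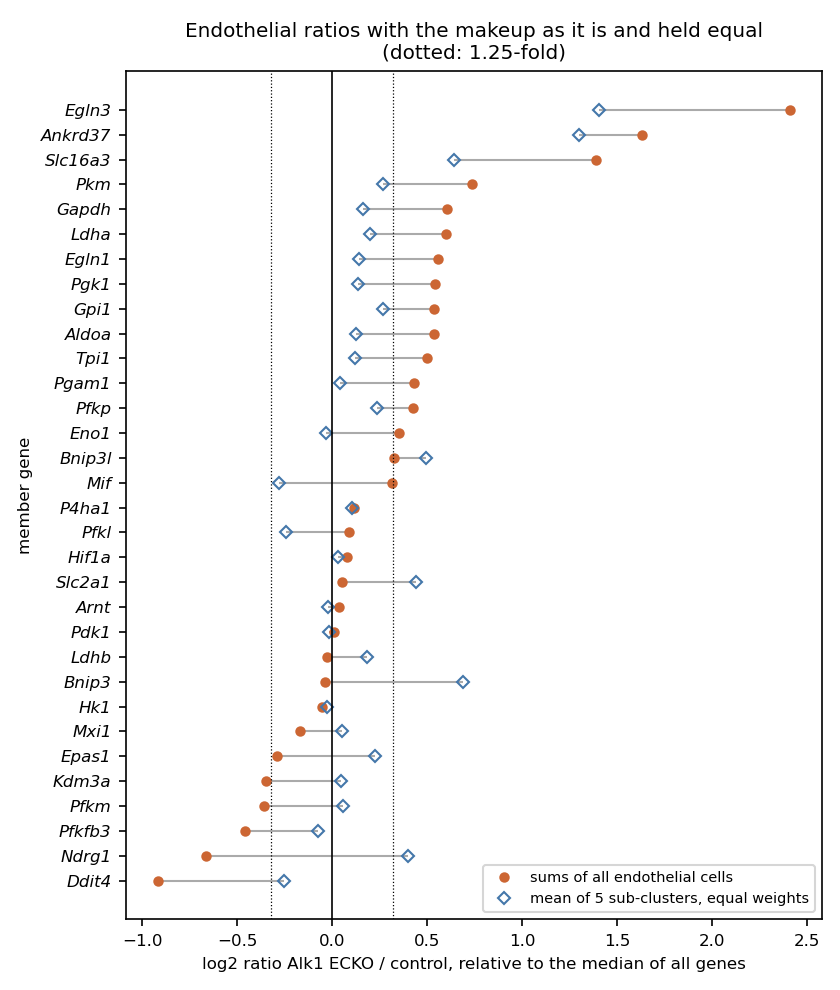
Relative log2 ratio (Alk1 ECKO over control) of the measured members in endothelial cells, from sums of all cells (orange circles) and from the mean of 5 sub-clusters with equal weights (open blue diamonds), with dotted lines at the call limits. Egln3, Ankrd37 and Slc16a3 stay to the right of the line, while Ldha is at 0.60 and 0.20 and Gapdh at 0.61 and 0.16. The diamonds of Egln3 and Slc16a3 rest mainly on tip and cycling cells.

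Retinal classes outside the 6 were described in the same way. Bipolar cells had 24 of 34 members higher and 3 lower (all genes 26.4% and 27.7%), with a median of 0.85. Neurogenic precursors had 24 of 30 higher and 3 lower (27.4% and 29.0%), with a median of 0.98, and amacrine cells 15 of 32 higher and 11 lower (31.1% and 33.9%). Astrocytes, with 21 and 17 cells, had 4 of 18 higher and 4 lower (25.9% and 28.6%), with a median of -0.01.

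Other genes of the response and of neighbouring pathways were counted from fixed lists. Of 40 other hypoxia-response genes, 34 were measured in endothelial cells, with 15 higher and 4 lower, beside 24.7% and 24.1% of all genes, and a median of 0.15. They included Adm, adrenomedullin (28 and 131 CPM, 2.43), and Car9, a carbonic anhydrase (1.42), against Ccng2 (-0.42), Gpd1l (-0.36) and Angptl4 (-0.36). The list had 7 of 25 higher and 5 lower in rods, near the 25.4% of all genes, and 10 of 29 higher and 5 lower in the glia (22.7%). It had 11 of 23 and 5 in mural cells (33.0%), 5 of 22 and 4 in microglia or macrophages (25.5%) and 7 of 22 and 5 in cones (28.0%). The pentose phosphate list had 1 of 7 higher in endothelial cells, Pgls (0.43), and the list of pyruvate dehydrogenase and the citric acid cycle 5 of 18, a share near that of all genes, among them Mpc1, a mitochondrial pyruvate carrier subunit (0.68). Nuclear-encoded subunits of the respiratory chain were higher beside the glycolytic enzymes: 22 of 28 in endothelial cells, 25 of 28 in rods and as many in cones, 19 in the Müller glia class and 13 in microglia or macrophages, with 0 lower in these 5 classes. In mural cells 3 were higher and 3 lower. Of all genes at 100 CPM or more, 44.3% were higher in endothelial cells, 38.2% in rods, 33.4% in cones, 34.5% in the glia and 32.7% in microglia or macrophages. Endothelial examples were Cox5b (0.71) and Cox8a (0.70).

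Stress genes, markers of other cell types and the smallest barcodes also differed between the libraries. Of 10 immediate early genes, which respond to handling among other things, 8 were higher in endothelial cells, led by Fosb (1.62) and Fos (1.48). In mural cells 7 were higher and 2 lower, in rods 5 and 2. Of 7 heat shock genes 2 were higher and 3 lower in endothelial cells, with a median of -0.27. Hspb1 was at 0.77, and Hspa1b (-5.40) and Hspa1a (-4.45) had the lowest values. Among 484 control and 984 Alk1 ECKO barcodes below 1000 UMIs, which were not kept as cells, 18 of 30 measured members were higher and 10 lower, beside 43.6% of all genes in each direction, with a median of 0.57. Gapdh stood there at 891 and 2884 CPM, and Slc2a1 at 89.4 and 548 CPM. These barcodes were not shown to be empty, and their makeup may differ between the libraries. In the Alk1 ECKO barcodes set aside for a low mitochondrial share that carried endothelial markers, 21 of 35 members were higher and 9 lower than in the kept endothelial cells of that library, beside 38.3% and 40.5% of all genes, with a median of 0.71. The largest of their clusters, with 935 Alk1 ECKO barcodes, was named erythroid by the marker rule, with haemoglobin genes beside endothelial ones among its top genes. The highest ratios were those of Aldoc (6.19), Hk2 (3.77) and Bnip3 (3.67), with 15, 14 and 127 UMIs in the kept endothelial cells. Whether these barcodes are endothelial cells was not tested. With them counted as endothelial, 20 of 35 members were higher than in control, beside 27.9% of all genes. The summed level of the 14 rod markers was 23198 and 27729 CPM in rods, and 92.3 and 12.7 CPM in endothelial cells. That of the 16 endothelial markers was 150 and 138 CPM in rods and 10368 and 9160 CPM in endothelial cells. Other markers were higher in the Alk1 ECKO endothelial class: 10 of 10 measured mural markers (6.31 and 43.8 CPM in sum over 14), 9 of 11 microglial markers (52.8 and 62.6 CPM over 16) and 4 of 4 haemoglobin genes (217 and 355 CPM). The part of handling, of RNA from other cells and of the shared library in the differences common to the classes was not tested, and with 1 library per genotype genotype and library cannot be told apart.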

How the data were processed

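The authors deposited 1 matrix per library of unnormalised UMI counts. Per the file headers Cell Ranger 5.0.1 wrote them. FastQC 0.11.9, Cell Ranger 6.1.1 and mm10 stand in the submitters' processing notes. Libraries were 10x 3′ libraries per the labels' protocols. Gene positions and exons came from GENCODE (mm10).

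A barcode passed with 1000 UMIs, 500 genes and no more than 10% of UMIs mitochondrial (7909 control, 4237 Alk1 ECKO). Scrublet's own threshold called 2 and 11 doublets, so the highest scores were removed at 0.8% per 1000 cells (500 and 144). Both libraries were clustered together (scanpy 1.11.5, leidenalg 0.10.2; 3000 variable genes without the 36 members, 30 components, 15 neighbours, resolution 1.0; endothelial cells at 0.6). A cluster took a class name from at least 3 markers among its top 20 genes, ranked over the mean of the other clusters or, failing that, their median. This naming rule, the third tried, the setting aside of clusters with a median doublet score over 0.1, of clusters under 1% mitochondrial UMIs and of 2 endothelial sub-clusters with mural markers (4 control and 100 Alk1 ECKO cells) were decided after the clusters had been seen. Clusters left unnamed held 1321 control and 130 Alk1 ECKO cells.

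Sums per class and library gave CPM with exact Poisson intervals and ratios with exact conditional binomial intervals at 95%. They cover counting error only. A count of 0 was set to a floor of 3 for ratios. The calculation was checked on simulated counts. Cells are not replicates, so nothing was tested across them. All 36 members could be named, and of each other list the 3 highest and 3 lowest genes in endothelial cells. The members and lists were chosen with earlier results of these data known. Alternatives covered centring, edgeR 4.0.16 TMM factors, UMI minimums, per-cell means, thinning, doublets, mitochondrial limits, clustering, the call rule and the endothelial makeup.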

Additional observations from a re-analysis of the deposited data

Results flagged for a closer look

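P4ha1 was the one member called in opposite directions with both intervals beyond the class median. It was higher in Müller glia or late progenitors (relative log2 ratio 0.34) and lower in microglia or macrophages (-0.62). The difference between these classes was not tested, since each rests on 1 library per genotype.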

How the results depend on the processing

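No paired analysis was possible because each genotype had 1 library, and for the same reason no replicate could be left out. Of the recomputed counts of higher members, 83 stayed within 1.5 times the reported count and 14 did not. Equal weights for the endothelial sub-clusters gave 7 higher members in endothelial cells, beside 20.6% of all genes. A call at 1.5-fold gave 6 in endothelial cells, 7 in microglia or macrophages, 7 in cones and 0 in every class (0.11% of all genes). Plain CPM gave 3 in every class (0.46% of all genes). Thinning cells to 2000 UMIs gave 9 in mural cells and 8 in microglia or macrophages. In every class it gave 4 of 12 measured, beside 2.17% of all genes. Without a filter beyond 1 UMI in each library, 25 were higher in microglia or macrophages. With a call that also needs an interval beyond the class median, 10 were higher in mural cells. Among genes at 100 CPM or more, an alternative chosen after seeing the data, 11 were higher in mural cells, 9 in microglia or macrophages and 13 in rods, since fewer members enter. For the other changes the cause was not tested. The number of members measured and the share of all genes also change with the setting. Where that share is not given, a count shows only how far the calls move and is no result about the members.

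Of the single ratios, 14 changed sign. With equal sub-cluster weights the endothelial ratios were 0.059 for Pfkm, -0.032 for Eno1, 0.40 for Ndrg1 and 0.045 for Kdm3a. With thinned cells they were -0.77 for Pgam1 in mural cells, 0.019 for Hk1, -0.014 for Pfkm and -0.000534 for Mxi1 in Müller glia or late progenitors, and -0.061 for Slc2a1 and 0.20 for Kdm3a in cones. The mural ratio of Slc16a3 was -0.025 with per-cell means. At up to 20% mitochondrial UMIs the mural ratios were -0.58 for Ankrd37 and -0.45 for Mxi1, and at resolution 1.5 that of Mxi1 was -0.66. The 11 control mural cells, with 144349 UMIs, and the 18 Alk1 ECKO cones, with 229628 UMIs, limit those classes.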
